A study of Mus musculus with 16 samples.

Results

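The genes described here are the aryl hydrocarbon receptor and the enzymes and pumps that could handle a phenol such as hydroquinone: Ahr, Cyp1b1, Tiparp, Ephx1, Sult1a1, Abcc1, Abcc4, Cbr1 and Por. The 9 genes were chosen by function and not by a rule on a measured value, though with earlier results of these data known. They were found by symbol among the 51912 genes of the deposited count table. All 9 passed a filter of a mean of at least 1 CPM (counts scaled to library size) that left 15380 genes for testing.

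RNA was sequenced from RPE, the retinal pigment epithelium that underlies and serves the photoreceptors, taken from male C57BL/6 mice aged 40 weeks. Mice were wild type or knockout for Sucnr1, the succinate receptor, and each genotype was either untreated or exposed to hydroquinone, an oxidant phenol. This gave 4 groups of 4 libraries: untreated wild type from 2 mice, wild type with hydroquinone from 4 mice, untreated knockout from 3 mice, and knockout with hydroquinone from 4 mice. The labels' protocol speaks of 4 animals in every group, whereas the sample titles name 13 mice, of which 3, all untreated, gave both eyes. The knockout is stated without its allele, and the dose, route and length of the exposure are not given in the labels.

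The aryl hydrocarbon receptor is a transcription factor that waits in the cytosol with chaperones, enters the nucleus when it binds a ligand, and pairs there with ARNT on target genes. Its classical targets are cytochrome P450 genes of family 1 and Tiparp, whose product feeds back to restrain the receptor. Hydroquinone can be oxidised to a reactive quinone, reduced back by quinone reductases, coupled to sulfate, glucuronic acid or glutathione, and pumped out of the cell. The RPE faces the choroidal blood supply and stands between it and the photoreceptors.

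Promoter sequence was available for 7 of the 9 genes in the RefSeq table used (build GRCm38.p6), which holds none for Ahr and Abcc1. Both strands of each window, from 250 bases before to 50 bases after the start site, were searched for the receptor's core motif GCGTG, letters that also occur in hypoxia response elements. It was present in 5 of the 7 genes, with 1 match in Cyp1b1, 1 in Tiparp, 2 in Abcc4, 2 in Cbr1 and 3 in Por. Of all 32851 windows of the same length, 32.4% held it. That is a share of windows and not of genes: the 7 genes had 8 windows, and the second window of Abcc4 held no core match. The motif TGACNNNGC, bound by NRF2, the oxidant-responsive factor, was found only in Abcc4 among the members, and in 12.4% of all windows. No match of one motif overlapped a match of the other.

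The 250 bases before the start site are shown for both receptor targets, Cyp1b1 (chr17:79715062-79715311, minus strand) and Tiparp (chr3:65528197-65528446, plus strand). They are also shown for the neighbouring carbonyl reductase genes, the member Cbr1 (chr16:93607587-93607836, plus strand) and Cbr3 (chr16:93682969-93683218, plus strand), because Cbr3 passed the test for the averaged hydroquinone effect and Cbr1 did not. Each is written 5′ to 3′ on the gene's strand, and capitals mark GCGTG or its reverse complement.
Cyp1b1: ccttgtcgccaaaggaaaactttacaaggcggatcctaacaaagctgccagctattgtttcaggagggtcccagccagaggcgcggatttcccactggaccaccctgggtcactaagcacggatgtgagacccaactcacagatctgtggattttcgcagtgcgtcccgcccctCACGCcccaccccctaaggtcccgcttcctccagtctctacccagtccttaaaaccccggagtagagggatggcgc
Tiparp: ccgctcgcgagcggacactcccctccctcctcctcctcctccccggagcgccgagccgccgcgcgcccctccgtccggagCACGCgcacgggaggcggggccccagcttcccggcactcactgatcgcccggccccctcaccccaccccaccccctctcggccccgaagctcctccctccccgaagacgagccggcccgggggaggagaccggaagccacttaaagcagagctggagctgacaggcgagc
Cbr1: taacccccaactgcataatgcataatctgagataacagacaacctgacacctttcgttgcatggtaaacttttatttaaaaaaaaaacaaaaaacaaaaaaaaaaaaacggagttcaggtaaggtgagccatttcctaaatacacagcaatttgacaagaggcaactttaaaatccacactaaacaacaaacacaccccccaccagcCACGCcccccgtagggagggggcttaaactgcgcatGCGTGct
Cbr3: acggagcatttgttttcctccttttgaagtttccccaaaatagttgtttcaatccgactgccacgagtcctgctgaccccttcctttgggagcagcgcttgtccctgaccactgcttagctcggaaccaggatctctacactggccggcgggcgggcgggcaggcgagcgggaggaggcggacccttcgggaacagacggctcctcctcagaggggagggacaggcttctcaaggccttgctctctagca
The match lay at position -76 from the start site in Cyp1b1, at -170 in Tiparp, and at -43 and -7 in Cbr1, counted at its first base. The Cbr3 window held neither motif. Nor did the window of Nqo1, a gene described below that passed the same test. A match is a description of the letters and was not tested as a binding site.

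Library depth ran from 21113549 to 35332444 counts. The Sucnr1 gene itself gave 29 counts in 4 of 8 wild type libraries and 4 counts in 2 of 8 knockout libraries, too few to check the genotype labels. RPE markers were high in every library, with a mean log2(CPM + 1) score from 9.20 to 9.99 over 12 genes and none at 0. RNA of other tissue was present in unequal amounts: the score of 15 rod photoreceptor markers ran from 2.86 to 9.85, that of 8 corneal and surface epithelium markers from 8.08 to 10.2, and that of 8 oligodendrocyte markers from 2.33 to 8.52. The highest rod scores, 9.85 and 9.68, belonged to untreated knockout replicate 4 and hydroquinone knockout replicate 1. The library identifiers came in 2 forms, with and without a letter, in a 2 to 2 split in every group except wild type with hydroquinone, where 3 had none and 1 had a letter. What the letter stands for is not stated.

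None of the 9 genes changed with hydroquinone at an adjusted p below 0.05 (edgeR quasi-likelihood F test, Benjamini-Hochberg adjustment over all 15380 genes). In wild type 0 of 9 passed, beside 0.0065% of all genes. In the knockout it was 0 of 9 beside 0.0455%, and for the effect averaged over genotype 0 of 9 beside 0.0845%. At an unadjusted p below 0.05 the members numbered 0 in wild type, 1 in the knockout and 1 on average, whereas all genes reached 4.28%, 2.96% and 5.72%. With 9 members, counts of 0 or 1 do not stand apart from these shares.

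**Figure D1:**
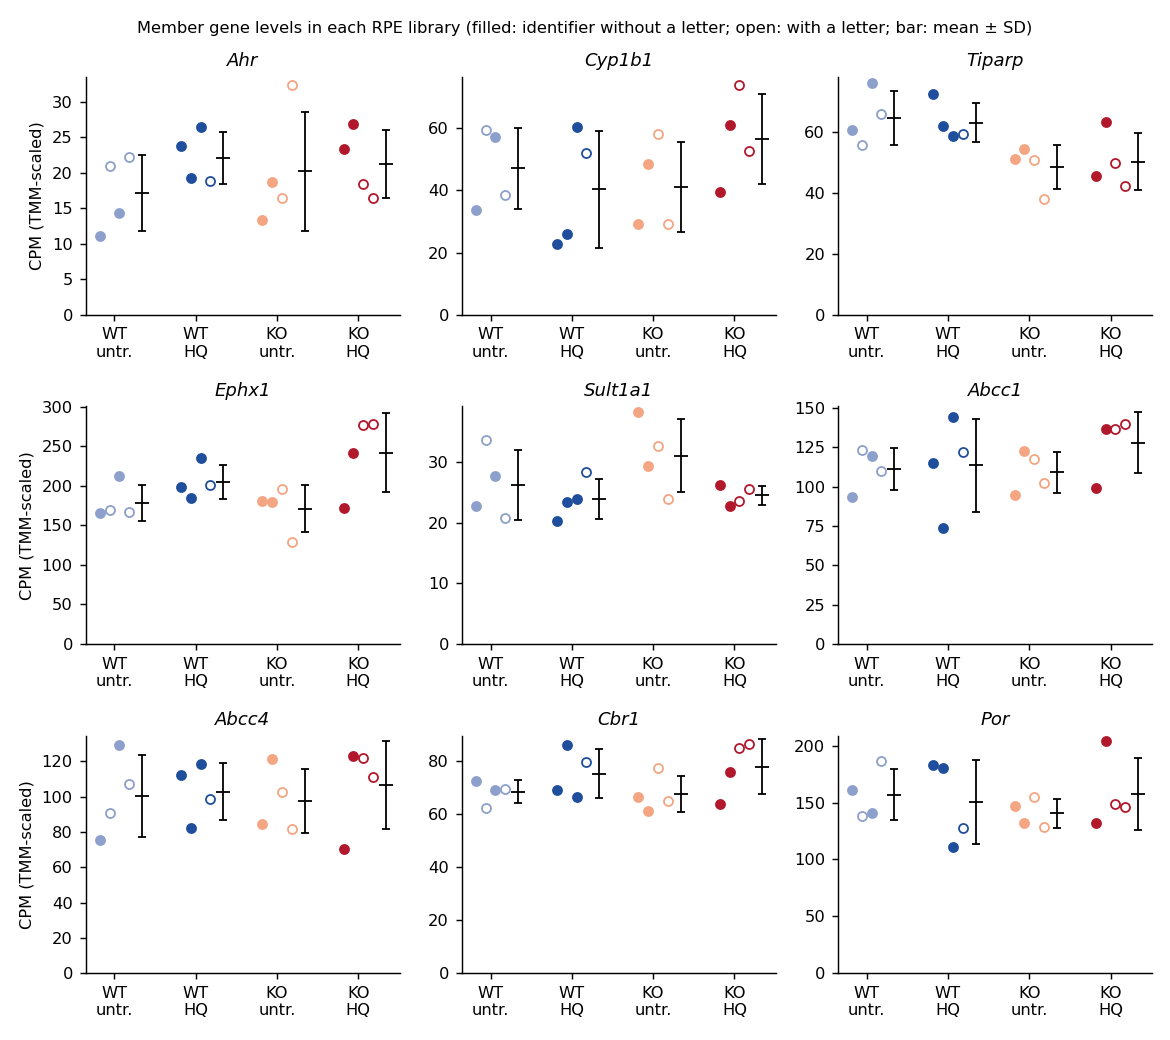
Level of each gene (vertical axis, TMM-scaled CPM from 0) in the 16 libraries by group (untr., untreated; HQ, hydroquinone); filled points are libraries whose identifier has no letter, open points those with a letter, and bars give the mean ± SD of 4 libraries. The compared groups overlap in every panel except Tiparp, where all 4 untreated knockout libraries (38.1 to 54.4 CPM) lie below all 4 untreated wild type libraries (55.6 to 76.0 CPM).

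The averaged effect was upward for 8 of the 9 genes and downward for Sult1a1, beside 51.2% of all genes upward. The median log2 fold change was 0.12 beside 0.0046 for all genes. Tiparp, counted among the 8, stood at 0.0061. Some members rose and fell together across libraries, so they are not separate readings, and the count was not tested. In wild type 5 genes were higher and 4 lower, with a median of 0.029, and in the knockout 8 were higher and 1 lower, with a median of 0.16. The 95% intervals of the averaged effect lay between 0.714-fold (Sult1a1) and 1.55-fold (Ahr), so for each gene an average change beyond those limits lay outside the interval. In simulated counts with the same depths and spreads, the test recovered 49% of genes changed 2-fold and 85% of those changed 4-fold in the wild type comparison, and 39% and 83% in the knockout comparison. The simulated libraries were independent, without shared mice or unequal tissue content, and the averaged effect was not simulated. The changed genes were drawn from all tested genes, among which changes of 2-fold and smaller could thus have been missed within a genotype. For the 9 members the 95% intervals, not adjusted for the number of genes, lay between 0.522-fold and 1.94-fold in wild type. In the knockout they lay between 0.618-fold and 2.25-fold, the upper end being that of Cyp1b1.

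**Figure D2:**
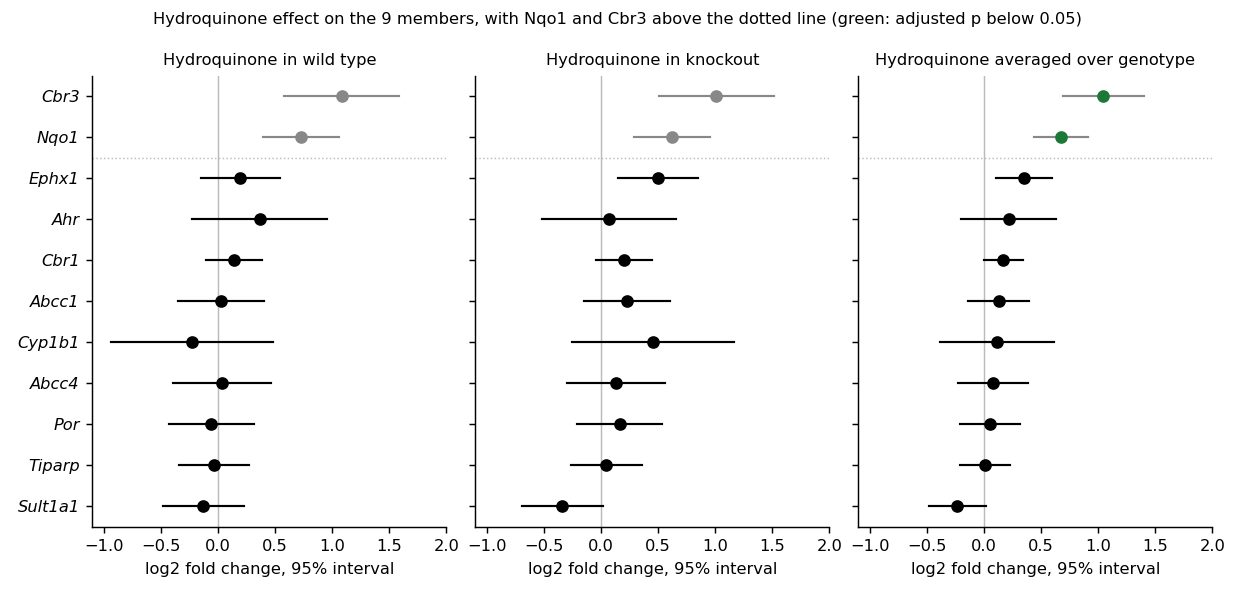
Log2 fold change with hydroquinone (horizontal axis) of the 9 genes and, above the dotted line, of Nqo1 and Cbr3, in wild type, in the knockout and averaged over genotype; lines are 95% intervals and green points have an adjusted p below 0.05. The members sit between -0.23 (Sult1a1) and 0.35 (Ephx1) on average, while Nqo1 and Cbr3 sit at 0.67 and 1.05.

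On a length scale, in CPM per kilobase of exon, Ephx1 was the most abundant of the 9 at 102 ± 21.0 (SD, n = 16 libraries). Por followed at 37.6 ± 6.36, Cbr1 at 28.2 ± 3.31, Sult1a1 at 17.5 ± 3.30, Abcc4 at 15.9 ± 2.97 and Tiparp at 13.0 ± 2.37. At the low end were Cyp1b1 at 7.93 ± 2.62, Abcc1 at 7.66 ± 1.28 and Ahr at 3.27 ± 0.898. Sult1a1 and Abcc4 differed by less than their SD, as did Cyp1b1 and Abcc1, and Abcc4 and Tiparp differed by about 1 SD. Only 2.54% of the tested genes were above Ephx1, whereas 64.1% were above the receptor itself.

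**Figure D3:**
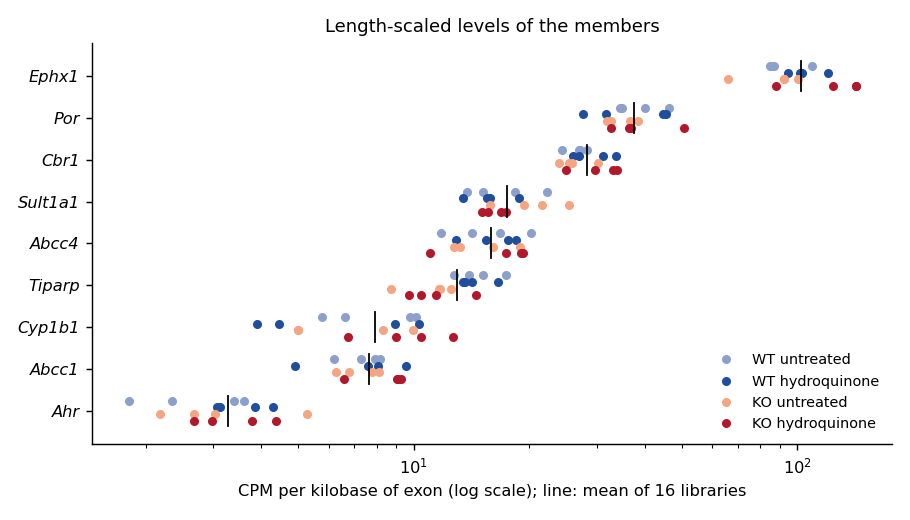
Length-scaled level of each gene (horizontal log axis, CPM per kilobase of exon) in the 16 libraries, coloured by group; the vertical line is the mean. Ephx1 leads at 102 and Ahr is lowest at 3.27, and the 4 groups intermix within nearly every gene.

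Ahr, the receptor, lies on chromosome 12 (GRCm38, 35497974 to 35535038, minus strand). Untreated wild type libraries held 11.1, 20.9, 14.4 and 22.2 CPM (replicates 1 to 4), and those with hydroquinone 23.8, 19.3, 26.4 and 18.8. In the knockout the untreated libraries held 13.4, 18.6, 16.5 and 32.4 CPM and the treated ones 23.4, 26.9, 18.4 and 16.4. The groups overlapped in both genotypes. The log2 fold change was 0.36 (95% interval -0.22 to 0.95) in wild type, 0.07 (-0.51 to 0.66) in the knockout and 0.22 (-0.20 to 0.63) on average, with edgeR adjusted p-values of 0.994, 1.0 and 0.923.

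The hydroquinone estimates for Ahr went in opposite directions in the 2 forms of the library identifier, though their difference did not pass the threshold. Among libraries without a letter, the 4 untreated ones held 11.1 to 18.6 CPM and the 5 with hydroquinone 19.3 to 26.9, so the treatments did not overlap, as was the case for 0.917% of all genes in the same direction. The log2 fold change within them, averaged over genotype, was 0.73 (SE 0.18, edgeR adjusted p = 0.999). Among libraries with a letter the 4 untreated ones held 16.5 to 32.4 CPM and the 3 with hydroquinone 16.4 to 18.8, and the log2 fold change was -0.34 (SE 0.26). A model with the form and its product with hydroquinone, added after the data were seen, put the difference between the forms at -1.11 (SE 0.29, edgeR adjusted p = 0.0636). By that model 2.15% of all genes passed the threshold and 15% had an unadjusted p below 0.05, so a difference between the forms was common across genes. By the same edgeR model the other 8 members had adjusted p-values of 0.48 or more. The rod score also differed between treatments within each form. With a letter it was 7.37 to 9.85 in untreated libraries and 2.86 to 4.41 in those with hydroquinone. Without a letter it was 3.58 to 6.19 untreated, and 6.98, 7.52, 7.24, 9.68 and 3.61 with hydroquinone. Its part in the difference between the forms was not tested.

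**Figure D4:**
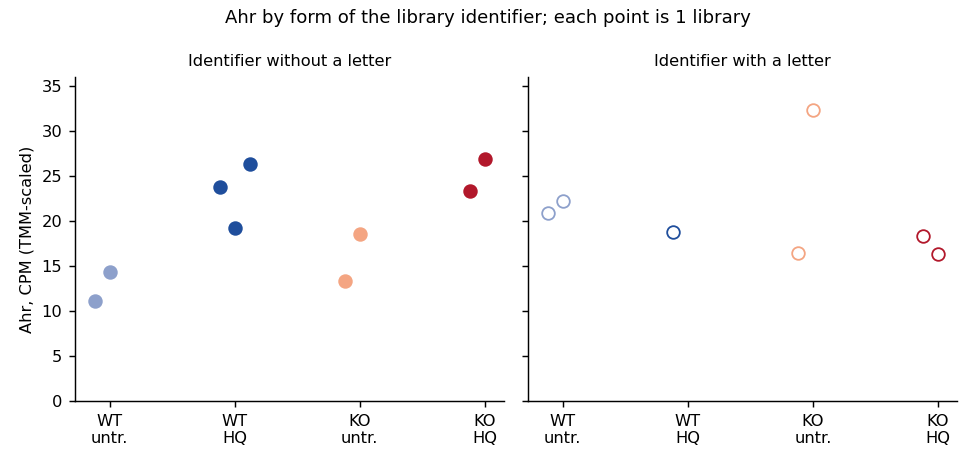
Ahr (vertical axis, TMM-scaled CPM) by group, split by the form of the library identifier; each point is 1 library. Without a letter the 5 hydroquinone libraries (19.3 to 26.9 CPM) lie above the 4 untreated ones (11.1 to 18.6 CPM); with a letter they do not.

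Tissue markers, those of the RPE among them, also moved with Ahr. Over the 16 libraries Ahr correlated at 0.57 with the inner retina and cone score and 0.46 with the rod score (Pearson r, a description over libraries that share dissection and depth). It was at -0.64 with the melanocyte score, -0.59 with lens, -0.54 with pericyte and smooth muscle and -0.47 with RPE. The remaining scores lay between -0.39 (macrophage) and -0.05 (corneal and surface epithelium). Untreated knockout replicate 4, the library with the most Ahr (32.4 CPM), also had the highest rod score, 9.85. Without it the averaged effect on Ahr was 0.37 (SE 0.16, edgeR adjusted p = 1.0), and with the rod score as a covariate it was 0.37 (SE 0.16, edgeR adjusted p = 0.827). The part of retinal RNA in the Ahr values was not otherwise tested, and in these bulk samples fewer cells of a type and less RNA per cell cannot be told apart.

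Cyp1b1, a target of the receptor that oxidises hormones, retinoids and foreign aromatic compounds, lies on chromosome 17 (79701537 to 79715061, minus strand). Its untreated wild type libraries held 33.5, 59.3, 57.2 and 38.6 CPM and the treated ones 22.7, 26.0, 60.3 and 52.2. Untreated knockout libraries held 29.1, 48.6, 58.0 and 29.1 CPM and treated ones 39.3, 61.0, 73.8 and 52.5. It was the most variable of the set: the highest library was 3.25 times the lowest, and its SD within groups exceeded that of 91.6% of genes of like level. The effect was -0.23 (95% interval -0.94 to 0.48) in wild type and 0.46 (-0.25 to 1.17) in the knockout, and 0.12 (-0.39 to 0.62) on average, where edgeR gave an adjusted p of 0.957. The difference between those effects, the interaction, was 0.69 (SE 0.47, 95% interval -0.32 to 1.69).

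The eyes of 1 mouse also differed, by an amount that depended on the gene. In the 3 mice with both eyes sequenced, all untreated, 1 eye had an identifier with a letter and the other without. The letter was on the left eye in both wild type mice and on the right eye in the knockout mouse. Within a mouse, a difference between its eyes cannot be told apart from one between the forms. Ahr was higher in the eye with a letter in 3 of 3 mice, at 20.9 against 11.1, 22.2 against 14.4 and 16.5 against 13.4 CPM. The rod score was also higher in that eye in all 3, at 8.61 against 6.19, 8.28 against 5.47 and 7.37 against 3.58. Its part in the Ahr difference was not tested. Cyp1b1 had no single direction, at 59.3 against 33.5, 38.6 against 57.2 and 58.0 against 29.1 CPM. The difference between the eyes exceeded the size of the averaged hydroquinone effect in 3 of 3 mice for Ahr, Cyp1b1, Abcc4 and Por, in 2 of 3 for Tiparp, Sult1a1, Abcc1 and Cbr1, and in 1 of 3 for Ephx1. For Tiparp that effect was itself near 0, and the eyes differed by at most 0.21 on the log2 scale.

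Tiparp, a mono-ADP-ribosyltransferase induced by the receptor, lies on chromosome 3 (65528410 to 65555518, plus strand). Its change with hydroquinone was near 0: the averaged log2 fold change was 0.0061, with a 95% interval from -0.21 to 0.23. Between genotypes it differed by more than the spread within groups, though without passing adjustment. Untreated wild type libraries held 60.6, 55.6, 76.0 and 65.9 CPM and untreated knockout libraries 50.9, 54.4, 50.8 and 38.1, with no overlap. Such a gap in the lower direction was present in 0.67% of all genes. Under hydroquinone the wild type libraries held 72.3, 61.8, 58.7 and 59.1 CPM and the knockout libraries 45.4, 63.3, 49.6 and 42.3, where replicate 2 overlapped the wild type range.

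The log2 fold change of Tiparp in the knockout was -0.41 untreated (95% interval -0.72 to -0.10) and -0.33 under hydroquinone (-0.64 to -0.02), both with an edgeR adjusted p of 1.0. Averaged over treatment, a contrast chosen after these values were seen, it was -0.37 (SE 0.10, 95% interval -0.59 to -0.15, edgeR adjusted p = 0.987). It ranked 13 among 15380 genes by its unadjusted p. No member and no other gene passed the threshold in any of the genotype contrasts or in the interaction (0% of all genes). At an unadjusted p below 0.05 the members numbered 1, Tiparp, in each genotype contrast and 0 in the interaction, beside 1.32% of all genes untreated, 4.18% under hydroquinone, 2.96% on average and 1.92% for the interaction. With both eyes of a mouse summed the averaged Tiparp difference was -0.38 (SE 0.12), and leaving out single libraries moved it between -0.44 and -0.32.

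Tiparp followed the corneal and surface epithelium score with a Pearson r of 0.63. That score was 9.26 ± 0.543 in untreated wild type and 9.36 ± 1.01 in treated wild type, against 8.94 ± 0.353 and 8.75 ± 0.785 in the knockout groups (SD, n = 4). Its mean was thus lower in the knockout as well, within its spread, and its part in the Tiparp difference was not tested. Of the transcribed bases of Tiparp, 5.12% overlap a pseudogene on the opposite strand that held 565 counts against 24307 for Tiparp, and the strand setting of the counting is not given in the sources used here.

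Ephx1, microsomal epoxide hydrolase, which opens reactive epoxides to diols, lies on chromosome 1 (180976210 to 181020904, minus strand). It had the smallest unadjusted p of the 9 for hydroquinone, ranking 172 among all genes for the averaged effect. Untreated wild type libraries held 166.2, 169.6, 212.9 and 166.3 CPM, and treated ones 198.7, 185.0, 234.9 and 201.0. In the knockout the untreated libraries held 180.2, 179.8, 196.4 and 128.7 CPM and the treated ones 171.4, 241.3, 277.1 and 278.0. In the knockout 3 of 4 treated libraries lay above all untreated ones and replicate 1 did not. In wild type, untreated replicate 3 overlapped the treated range.

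The log2 fold change of Ephx1 was 0.20 (SE 0.16) in wild type, 0.50 (SE 0.16, 95% interval 0.15 to 0.85) in the knockout and 0.35 (SE 0.12, 95% interval 0.10 to 0.59) on average. By edgeR the adjusted p-values were 0.994, 1.0 and 0.775. The interaction was 0.30 (SE 0.23), so a difference between genotypes was not shown. Within libraries without a letter the averaged effect on Ephx1 was 0.13 (SE 0.15), and within those with a letter 0.52 (SE 0.16, edgeR adjusted p = 0.183). The test of the difference between the forms gave 0.39 (SE 0.23). Within each form the treatments also differed in rod score, as given for Ahr, and its part in that difference was not tested.

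Ephx1 moved with the tissue markers. Its correlation over the 16 libraries was 0.69 with the RPE score, -0.70 with the rod score and -0.70 with the inner retina and cone score, and with group means removed these were 0.89, -0.74 and -0.74. Both knockout libraries with the highest rod scores had the least Ephx1 of their group, 128.7 CPM untreated and 171.4 CPM treated. Leaving out the treated one raised the knockout effect to 0.63 (SE 0.14, edgeR adjusted p = 0.315), and leaving out the untreated one lowered it to 0.37 (SE 0.16). With the rod score as a covariate the averaged effect was 0.27 (SE 0.09, edgeR adjusted p = 0.663).

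**Figure D5:**
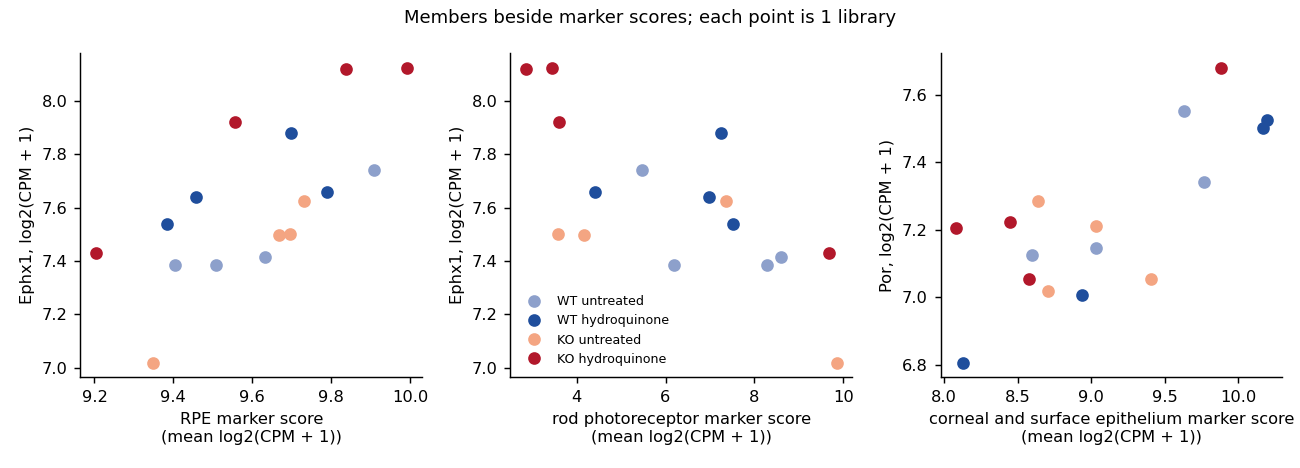
Log2(CPM + 1) of Ephx1 against the RPE and the rod photoreceptor marker scores, and of Por against the corneal and surface epithelium score; each point is 1 library and colours give the group. Ephx1 rises with the RPE score (r = 0.69) and falls with the rod score (r = -0.70), and Por rises with the corneal score (r = 0.76).

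Por, the reductase that passes electrons from NADPH to microsomal cytochromes P450, lies on chromosome 5 (135670033 to 135735326, plus strand). Its group means were 156.8 ± 22.5 CPM in untreated wild type, 150.4 ± 36.7 in treated wild type, 140.6 ± 12.5 in untreated knockout and 157.6 ± 31.8 in treated knockout (SD, n = 4). The libraries ran from 110.9 CPM (treated wild type replicate 3) to 203.9 (treated knockout replicate 2), and all groups overlapped. Its averaged change with hydroquinone was 0.05 (95% interval -0.21 to 0.32, edgeR adjusted p = 0.957). Its level followed the corneal and surface epithelium score, with r = 0.76 over the libraries and 0.85 with group means removed.

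Sult1a1, the phenol sulfotransferase, lies on chromosome 7 (126672865 to 126676432, minus strand) and was the 1 member with a lower mean under hydroquinone in both genotypes. Untreated wild type libraries held 22.8, 33.6, 27.7 and 20.8 CPM and treated ones 20.3, 23.3, 23.9 and 28.3. In the knockout the untreated libraries held 38.2, 29.3, 32.6 and 23.9 CPM and the treated ones 26.2, 22.7, 23.6 and 25.5. The treated knockout libraries formed a narrow band below 3 of the 4 untreated ones. The log2 fold change was -0.13 (SE 0.17) in wild type, -0.34 (SE 0.17) in the knockout and -0.23 (SE 0.12, 95% interval -0.48 to 0.02) on average, where edgeR gave an adjusted p of 0.895. Of its 50-base windows, 7.36% also occur in transcripts of other genes, mostly Gm6939, and 61 bases overlap Sgf29 on the opposite strand, so its counts are uncertain to that extent.

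Cbr1, a carbonyl reductase that turns quinones into hydroquinones, lies on chromosome 16 (93605853 to 93610505, plus strand) and was the steadiest of the 9: the highest library was 1.41 times the lowest. Untreated wild type libraries held 72.5, 62.3, 69.1 and 69.4 CPM and treated ones 68.8, 85.9, 66.4 and 79.4. In the knockout the untreated libraries held 66.2, 61.2, 77.0 and 65.0 CPM and the treated ones 63.8, 75.8, 84.6 and 86.3. Treated and untreated libraries overlapped in both genotypes. The log2 fold change was 0.14 (SE 0.12) in wild type, 0.21 (SE 0.12) in the knockout and 0.17 (SE 0.08, 95% interval -0.0026 to 0.35) on average, where edgeR gave an adjusted p of 0.875.

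Cbr3, the neighbouring gene of the same enzyme family, passed the test with libraries as the unit but not with the eyes of a mouse summed. Untreated wild type libraries held 13.2, 10.4, 7.16 and 11.3 CPM and treated ones 24.8, 29.5, 13.9 and 20.9. Untreated knockout libraries held 10.4, 14.1, 10.6 and 8.12 CPM and treated ones 18.6, 23.0, 24.2 and 21.2. The treated libraries lay above the untreated ones within each genotype, as they did for 1.13% of all genes in wild type and 1.18% in the knockout. The averaged log2 fold change was 1.05 (SE 0.17, edgeR adjusted p = 0.0262), with 1.08 in wild type and 1.01 in the knockout. With eyes summed it was also 1.05, with an edgeR adjusted p of 0.271, and it stayed below the threshold in 12 of 25 alternative fits.

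Cbr1 and Cbr3 lie side by side, and their log2 ratio (Cbr3 over Cbr1) per mouse is given as a description with no test, since the pair was chosen after the values of both were seen. It was -1.82 ± 0.255 (SD) in 8 treated mice and -2.67 ± 0.359 in 5 untreated mice, a difference of 0.85. By genotype, treated minus untreated came to 0.93 (wild type) and 0.80 (knockout).

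Abcc1 and Abcc4 encode pumps that export organic anions, including conjugates, and lie on chromosome 16 (14361558 to 14475737, plus strand) and chromosome 14 (118482692 to 118706219, minus strand). Abcc1 group means were 111.4 ± 13.4 CPM in untreated wild type, 113.7 ± 29.4 in treated wild type, 109.3 ± 13.1 in untreated knockout and 128.0 ± 19.3 in treated knockout (SD, n = 4). In the treated knockout, 3 libraries held 136.4 to 139.7 CPM and replicate 1, the one with the high rod score, 99.2. The averaged log2 fold change of Abcc1 was 0.13 (95% interval -0.14 to 0.40, edgeR adjusted p = 0.927), and without that library 0.18.

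Abcc4 had group means of 100.6 ± 23.2, 102.8 ± 15.9, 97.4 ± 18.3 and 106.6 ± 24.7 CPM in the same order. Its averaged log2 fold change was 0.08 (95% interval -0.22 to 0.39, edgeR adjusted p = 0.954). Single libraries ran from 70.4 CPM in treated knockout replicate 1 to 129.3 in untreated wild type replicate 3, and all groups overlapped.

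Across the libraries some members rose and fell together. The highest correlations among them were 0.78 between Cyp1b1 and Abcc1, 0.76 between Abcc1 and Abcc4 and 0.67 between Ephx1 and Abcc4 (Pearson r of log2(CPM + 1), n = 16, as a description). All 4 of these genes also followed the RPE marker score, with r from 0.61 to 0.69. The receptor and its targets showed little correlation: r was -0.03 between Ahr and Cyp1b1 and -0.18 between Ahr and Tiparp.

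The genes most like each member over the 16 libraries were taken from all tested genes by the same correlation. For Ahr they were Pigm (0.90) and Zswim6 (0.88), for Cyp1b1 Acss3 (0.93) and Jcad (0.92), and for Tiparp Stk38 (0.86) and Pmm2 (0.86). Ephx1 was most like Tor1aip1 and Nucb1 (0.94 each), Por like Mid1ip1 (0.94) and Rhov (0.90), and Sult1a1 like Fcor (0.85) and Apoo (0.79). Cbr1 was most like Alad (0.87) and Rnf19b (0.86), Abcc1 like Iqgap2 (0.95) and Dpp8 (0.94), and Abcc4 like Lpp (0.93) and Cobll1 (0.90).

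The wider pathway was read from lists of 117 genes, of which 88 were tested. The lists were chosen with earlier results of these data known. The share of a list that passed is therefore a description and not a measure of enrichment. In the list of the receptor's complex and battery, 9 of 13 genes were tested and 1 of the 9 rose on average, Nqo1, beside 0.0845% of all genes called in that contrast; 4 were higher and 5 lower, with a median log2 fold change of -0.03. The next genes of this list are named for their roles and not by a test. The receptor's partner Arnt went from 56.0 ± 1.28 CPM untreated to 61.1 ± 9.45 treated in wild type and from 56.7 ± 5.18 to 61.5 ± 4.26 in the knockout. Arnt2 went from 35.7 ± 23.6 to 11.5 ± 4.83 in wild type and from 29.0 ± 11.8 to 23.2 ± 16.3 in the knockout. Ahrr went from 2.67 ± 2.03 to 1.72 ± 1.28 and from 3.02 ± 4.27 to 2.71 ± 4.32. Aldh3a1 had a higher mean when treated in wild type (1749 ± 1085 to 3485 ± 2891) and a lower one in the knockout (1594 ± 479 to 1191 ± 760). The mean corneal and surface epithelium score moved the same way, within its spread. It went from 9.26 ± 0.543 to 9.36 ± 1.01 in wild type and from 8.94 ± 0.353 to 8.75 ± 0.785 in the knockout. Its part in the Aldh3a1 values was not tested. The family 1 cytochromes most often used to read receptor activity were at the floor: Cyp1a1 gave 9 counts in 5 of 16 libraries and Cyp1a2 gave 0 in all 16, where a count of 0 allows up to 3 counts a library. Neither could be tested.

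Nqo1, a quinone reductase that is a target of both the receptor and NRF2, held 82.4, 87.0, 102.1 and 76.3 CPM in untreated wild type and 131.2, 119.1, 176.2 and 150.2 in treated wild type. In the knockout it held 99.2, 99.98, 108.5 and 74.6 CPM untreated and 116.4, 148.5, 146.3 and 175.9 treated. All 8 treated libraries lay above all 8 untreated ones, as for 0.0715% of all genes in that direction. The averaged log2 fold change was 0.67 (SE 0.11, edgeR adjusted p = 0.0323), with 0.73 in wild type and 0.62 in the knockout. With eyes summed it was 0.70, with an edgeR adjusted p of 0.293, and it stayed below the threshold in 9 of 25 alternative fits.

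Over the 25 alternative fits the log2 fold changes ran from 0.94 to 1.13 for Cbr3 and from 0.49 to 0.85 for Nqo1. The identifier forms each kept the direction: Nqo1 was at 0.49 without a letter and 0.85 with one, and Cbr3 at 0.94 and 1.11. The treatments also differed in rod score within each form, as given for Ahr.

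In the list of carbonyl and quinone reduction, 2 of 16 tested genes rose on average, Cbr3 and Nqo1, and 0 fell, beside 0.0845% of all genes called in that contrast. Nqo1 is the same gene as in the receptor's list, and this list too was chosen with earlier results known. Both calls were lost with eyes summed and kept with the mouse as a random block, where the correlation between eyes was -0.02. Its median log2 fold change was 0.12, with 13 genes higher and 3 lower, beside 0.0046 for all genes. In the lists of sulfation (11 tested), glucuronidation (5), methylation and acetylation (7), epoxide hydrolysis (5), cytochrome P450 with electron partners (26) and drug efflux pumps (10), 0 genes passed the threshold in any hydroquinone contrast. Their medians on average were 0.031, 0.19, -0.02, -0.0080, 0.03 and 0.18.

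The genes with the smallest p in those lists are given without a call. Ugdh, which makes the sugar donor for glucuronidation, went from 73.3 ± 9.62 to 93.5 ± 7.49 CPM (SD, n = 8 libraries each; log2 fold change 0.35, SE 0.08, edgeR adjusted p = 0.404). Hmox1, heme oxygenase, which draws its electrons from POR, went from 20.1 ± 4.22 to 31.3 ± 5.40 CPM over both genotypes (0.65, SE 0.12, edgeR adjusted p = 0.0657). By genotype it went from 17.4 ± 3.06 to 34.4 ± 4.62 CPM in the knockout (n = 4; log2 fold change 0.98, SE 0.17, edgeR adjusted p = 0.0625). In wild type it went from 22.7 ± 3.73 to 28.2 ± 4.55 (0.31, SE 0.17). No gene passed the threshold for the interaction, so a difference between genotypes was not shown. Pgrmc2, a heme-binding partner of cytochromes P450, went down, from 104.8 ± 6.53 to 90.5 ± 5.99 CPM over both genotypes (-0.21, SE 0.05, edgeR adjusted p = 0.508). Its effect was -0.31 (SE 0.08) in wild type and -0.12 (SE 0.08) in the knockout.

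Mest, a hydrolase-like protein, stood at 0.36 (SE 0.13) and Ephx4, an epoxide hydrolase relative, at -0.56 (SE 0.30). Among pumps Abcc3 was at 0.46 (SE 0.24) and Abcg2 at 0.21 (SE 0.14). The sulfate donor synthase Papss1 was at 0.14 (SE 0.09) and Sult4a1, a sulfotransferase of neurons, at -1.05 (SE 0.76). The glucuronosyltransferase Ugt1a7c was at 0.64 (SE 0.32), and the methyltransferases Hnmt and Tpmt at -0.28 (SE 0.15) and 0.40 (SE 0.24). All are averaged log2 fold changes with an edgeR adjusted p of 0.823 or more.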

How the data were processed

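The deposited table held whole-number counts per gene for 16 libraries, although its name announces FPKM; per the submitters' processing notes STAR, Cufflinks, DESeq2 and build mm10 were used, with no role or order given. Counts were scaled by TMM and tested with edgeR 4.0.16 (R 4.3.3; quasi-likelihood F test) in 1 model of 4 group means over the 15380 of 51912 genes averaging 1 CPM or more (99.8% of counts), with adjustment by Benjamini-Hochberg and a threshold of 0.05. Standard errors were the log2 fold change divided by the root of F, and 95% intervals used the moderated t distribution. Symbols, coordinates and exon lengths came from the GRCm38 annotation. Alternatives used median-of-ratios scaling, no filter, DESeq2 1.42.0, limma 3.58.1 with the mouse as a random block, both eyes summed, the identifier form or rod score as a covariate, each form alone, and each library left out. The model was tested on simulated data. Depth was 21113549 to 35332444 counts a library. The eyes of a mouse had a consensus correlation of -0.02 over genes. Members, gene lists and marker lists were chosen with earlier results of these data known. All 9 members were named, with the genes of each list that passed or else the 2 with the smallest averaged p. Libraries are the unit of the p-values, and where 2 come from 1 mouse those p-values measure in part the spread between eyes.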

Additional observations from a re-analysis of the deposited data

Results flagged for a closer look

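In each set of 4 libraries of a group, a library was singled out when its gap to the nearest other exceeded Dixon's 95% limit for the gap as a share of the set's range. Chance alone gives about 1 in 20 sets, and 36 sets were searched. Ephx1 was high in untreated wild type replicate 3, at 212.9 CPM beside 166.2 to 169.6 in the other 3, with a gap of 0.918 of the range. Abcc1 was low in hydroquinone knockout replicate 1, at 99.2 CPM beside 136.4 to 139.7, with a gap of 0.930 of the range. The first library had the highest RPE score of its group (9.91) and the second a rod score of 9.68, and the part of either in these values was not tested.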

How the results depend on the processing

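None of the 9 members passed the threshold in any of 25 alternative fits, and the smallest adjusted p was 0.155 (Ephx1, averaged effect, without hydroquinone knockout replicate 1). Of 675 alternative values for the members' hydroquinone effects, 46 turned their direction and the rest kept it, and all 36 group means moved by less than 1 SD under median-of-ratios scaling. With only the libraries with a letter, the direction turned in wild type for Ahr (-0.19), Cyp1b1 (0.091), Sult1a1 (0.060) and Abcc4 (-0.0062), in the knockout for Ahr (-0.49), and on average for Ahr (-0.34) and Por (-0.15). With only those without a letter it turned in wild type for Abcc4 (-0.0031) and Por (0.040), in the knockout for Abcc4 (-0.12), and on average for Cyp1b1 (-0.010), Tiparp (-0.048) and Abcc4 (-0.059). With the rod score as a covariate it turned for Abcc4 in wild type (-0.0058) and on average (-4.1e-05), and for Tiparp in the knockout (-0.0030) and on average (-0.029). It also turned for Tiparp on average with the form as a covariate (-0.018), for Ahr in the knockout with eyes summed (-0.052), and for Abcc1 in wild type with the mouse as a random block (-0.0038). The cause was not tested.

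Leaving out 1 library turned the direction in wild type for Tiparp (-0.11 to 0.054), Sult1a1 (-0.23 to 0.012), Abcc1 (-0.11 to 0.19), Abcc4 (-0.085 to 0.18) and Por (-0.17 to 0.062), in the knockout for Ahr (-0.081 to 0.38) and Tiparp (-0.085 to 0.12), and on average for Cyp1b1 (-0.015 to 0.22), Tiparp (-0.060 to 0.050) and Por (-0.022 to 0.11).

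Over all genes, 1 was called in wild type: 2 with median-of-ratios scaling, 20 by DESeq2, 3 with the mouse block, 2 with the form and 4 with the rod score as covariate, 0 with a letter only, and 1 to 3 with a library left out. The 7 in the knockout became 14 by DESeq2, 3 with eyes summed, 4 with the form as covariate, 1 without and 0 with a letter, and 3 to 11 with a library left out. The 13 on average became 39, 6 with eyes summed, 2 without and 0 with a letter, and 7 to 15. Between genotypes under hydroquinone DESeq2 called 3 genes and edgeR 0. No paired analysis was possible because no mouse gave libraries to more than 1 group, both eyes of a mouse being in the same group, and replicate numbers follow accession order.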
